A study of Mus musculus with 6 samples.

Results

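Cdc42se2 and Akap13 were the 2 genes, of 21951 protein-coding genes in the annotation, whose introns held the strongest recurrent H3K4me1 signal in germinal center (GC) B cells. They were chosen on the H3K4me1 lists themselves. H3K4me1 peaks of 3 libraries were merged into regions, each region found in all 3 libraries (a recurrent region) was ranked by the mean of its places on the -log10 q-values, and the intronic regions with the best mean rank gave the genes. They are called the selecting regions. The series held 6 Mint-ChIP libraries, a chromatin immunoprecipitation made for small cell numbers, with 3 libraries for H3K4me1 and 3 for H3K4me3. All came from wild-type mice given sheep red blood cells to raise germinal centers, with spleens taken on day 8 and 50000 sorted cells per library. The labels call the cells centrocytes and the methods call them GC B cells. The genotype is given only as WT, a name that the study uses elsewhere for mice with the C gamma 1 Cre allele, and whether these mice carried it is not given in the sources used here. No treatment or second genotype was among the libraries, the animals' ages are not given in the labels, and the mark is the only contrast. A library mixes all sorted cells, so a peak does not tell how many cells carried the mark.

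H3K4me1 is the methyl mark that KMT2C and KMT2D place at enhancers, and it usually flanks the open sites where transcription factors bind. H3K4me3 is the mark of active promoters, and strong enhancers can carry some of it too. Cdc42se2 encodes a small effector that binds active CDC42, the GTPase that drives actin-based protrusions and polarity in lymphocytes. Akap13, also known as AKAP-Lbc, encodes a large scaffold that holds protein kinase A and switches on RhoA, the GTPase of contractility, through its exchange factor domain. GC B cells depend on both GTPases when they move between zones and pull antigen from other cells.

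The selecting regions lay away from promoters. In mm10, the Cdc42se2 region was chr11:54775316-54777737, in the first intron of the minus-strand transcript Cdc42se2-201 (6 exons) and 9938 bp from the nearest protein-coding start site, its own. The Akap13 region was chr7:75537077-75538009, in intron 2 of the plus-strand transcript Akap13-201 (37 exons). It lay 81543 bp from the nearest protein-coding start site, which was again its own. Neither overlapped an annotated exon. The reference sequence of 300 bp around the highest summit of each is shown because the summit marks the strongest signal of the region. The summits lay off the middle of both regions, and the Akap13 window runs past the end of its region. Both are written on the plus strand of mm10, chr11:54775622-54775921 and chr7:75537739-75538038, and capitals mark the searched motifs.

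Cdc42se2 summit window: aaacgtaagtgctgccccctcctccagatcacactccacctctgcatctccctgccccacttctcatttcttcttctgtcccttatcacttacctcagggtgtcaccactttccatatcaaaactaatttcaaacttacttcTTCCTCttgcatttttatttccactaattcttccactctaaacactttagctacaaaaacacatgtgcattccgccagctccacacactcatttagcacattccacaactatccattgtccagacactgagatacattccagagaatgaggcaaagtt
Akap13 summit window: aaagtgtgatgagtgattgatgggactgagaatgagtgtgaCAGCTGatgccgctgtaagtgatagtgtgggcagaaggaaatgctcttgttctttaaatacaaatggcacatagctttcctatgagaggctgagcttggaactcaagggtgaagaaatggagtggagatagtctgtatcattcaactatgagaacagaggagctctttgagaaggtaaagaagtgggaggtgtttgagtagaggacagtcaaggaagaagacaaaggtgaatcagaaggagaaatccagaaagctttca

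Both windows were 43.0% G and C, with 2 CpG dinucleotides in Cdc42se2 and 1 in Akap13. On both strands, 6 motifs were searched: GGAAGT for ETS factors, GAGGAA for PU.1, TTCNNNGAA for STAT factors, CAGCTG for the E-box of E2A, TGTGGT for RUNX factors, and ATGCAAAT for the octamer bound by OCT2. The PU.1 and ETS letters can overlap where GAGGAA runs into GGAAGT. The Cdc42se2 window held 1 PU.1 match, on the minus strand at chr11:54775764-54775769, beside the summit at base 54775772. Of 1845 equal windows around the summits of recurrent H3K4me1 regions, 34.0% held this motif. The Akap13 window held 1 E-box at chr7:75537780-75537785, a motif in 14.8% of the windows. Neither window held the ETS, STAT, RUNX or octamer letters, which 24.7%, 8.02%, 27.05% and 3.79% of the windows held. These matches describe letters and not bound sites.

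The libraries differed in how much was called. The H3K4me1 lists held 24136, 13923 and 11922 narrow peaks and covered 7.91, 4.35 and 3.53 Mb, and the H3K4me3 lists held 41936 to 46707 broad peaks over 49.4 to 60.2 Mb. Total reads per library are unknown. For H3K4me1, the number of fragments at each summit could be recovered from fold and p-value, and its median was 6 in each list, so most peaks rest on few fragments. All 9 GC B cell markers reported here, among them Bcl6 and Pax5, had an H3K4me3 peak within 5 kb of a start site in 3 of 3 libraries, against 56.3% of all protein-coding genes. The same held for 0 of 5 T cell genes, with Cd3e, Cd4, Cd8a and Cd247 without such a peak in any library, for 2 of 5 myeloid, 3 of 3 erythroid and 3 of 3 plasma cell genes, with Lyz2 at 0. The part of other cells in the peaks described here was not tested.

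Cdc42se2 carried the best-ranked recurrent H3K4me1 region. Its highest peak had a summit fold enrichment over local background of 14.4, 15.7 and 13.2 in replicates 1, 2 and 3, and a mean of 14.4 ± 1.29 (SD, n = 3). It stood at places 5, 2 and 3 of its lists by -log10 q-value, for a mean rank of 3.33. In all 3 libraries this was the highest H3K4me1 peak of the locus. The rule asked for high places in every list, so like values between libraries are no separate evidence. The summits rested on 20, 20 and 17 fragments over a local background of 0.456, 0.334 and 0.368 fragments. They fell within 75 bp of each other, and 19.4% of recurrent regions had summits at least that close.

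Akap13 carried the region in the second place. Its summit fold enrichment was 14.04, 16.5 and 12.4 in replicates 1, 2 and 3, with a mean of 14.3 ± 2.04 (SD, n = 3), at places 7, 1 and 8 and a mean rank of 5.33. Replicate 2 had the highest value for both genes and replicate 3 the lowest. The summits held 19, 23 and 16 fragments over 0.425, 0.457 and 0.368 fragments of background, and they lay within 139 bp, a spread that 37.6% of recurrent regions did not exceed. The means of both genes differed by less than the SD of either. These values chose the genes, so they are given as a description with no test.

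The next regions show where the choice ended. The third region by mean rank, at 12.7, lay near the start of chromosome 9 in the noncoding gene Gm26870 and had a fold of only 5.18, 4.67 and 5.06. The fourth, at 35, overlapped an exon of Mroh2a. The next intronic regions belonged to Ptprj, a receptor phosphatase that tunes antigen receptor signaling, at a mean rank of 62.3 with folds of 9.82, 13.5 and 12.4, and to Hipk1, a nuclear kinase, at 106. Rab30, a Golgi GTPase, followed at 147, Gm47283 on chromosome Y at 159, and Macf1, which links actin and microtubules, at 174. In each of these 5 genes an H3K4me3 peak also overlapped the region in 3 of 3 libraries. Recurrence itself was uncommon, since 1845 of 39388 merged H3K4me1 regions (4.68%) were found in 3 of 3 libraries.

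**Figure D1:**
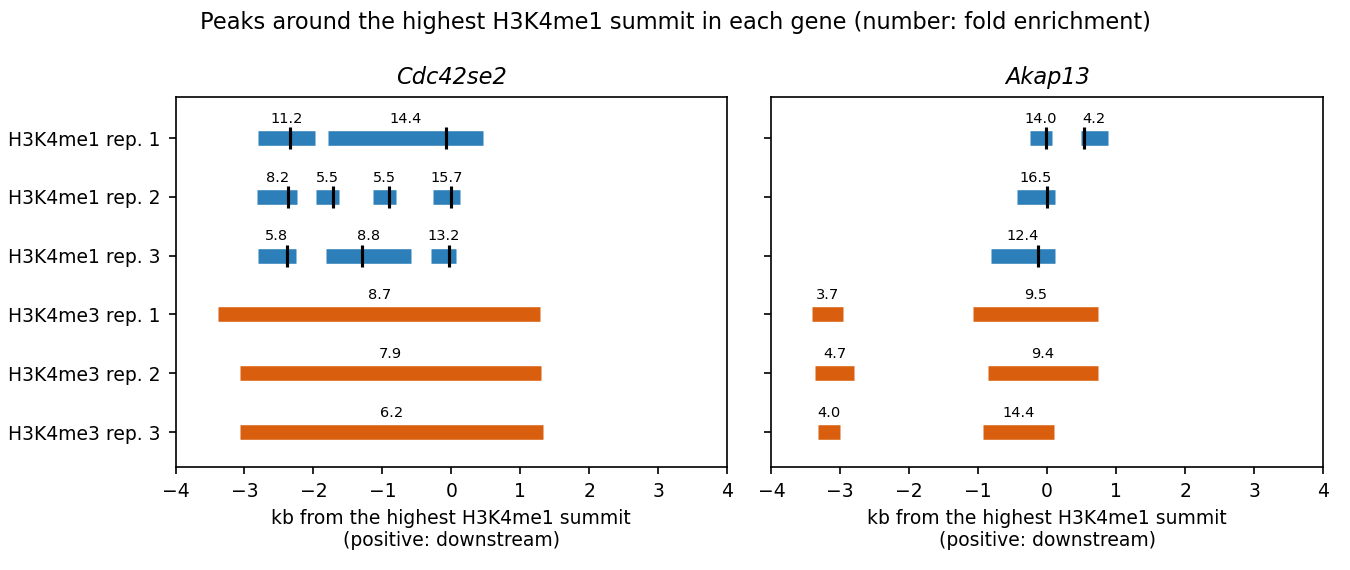
Peaks of the 6 libraries within 4 kb of the highest H3K4me1 summit of Cdc42se2 (left) and Akap13 (right), with distance in kb in the direction of transcription on the horizontal axis and 1 library per row. Blue bars are H3K4me1 peaks with a black tick at each summit, orange bars are H3K4me3 peaks, and the number above each bar is its fold enrichment. H3K4me3 bars run beneath the H3K4me1 summits of both genes in every library.

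The Cdc42se2 region was built differently in the 3 libraries although its summit was shared. Replicate 1 gave a single peak of 2244 bp. Replicate 2 gave 3 peaks, of which the pair nearer the start site had a fold of 5.49 each on 7 fragments, and replicate 3 gave 2, the second with a fold of 8.77 on 11 fragments. A further region in the same intron, chr11:54777751-54778593, began just beyond it and was also found in 3 of 3 libraries, with folds of 11.2, 8.25 and 5.85. At Akap13 every library gave a single peak in the region, of 311, 563 and 927 bp. Replicate 1 had an additional weak peak there, at a fold of 4.21, just downstream of the region.

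H3K4me3 covered both intronic regions. At Cdc42se2 the covered share was 100% in each of the 3 H3K4me3 libraries, by a single broad peak of 4676, 4356 and 4392 bp with a fold of 8.71, 7.94 and 6.16. In their own lists, 4.82%, 5.33% and 18.1% of H3K4me3 peaks had a higher fold. At Akap13 the covered share was 100%, 100% and 97.96%, by a peak of 1813, 1601 and 1037 bp with a fold of 9.51, 9.35 and 14.4. Here 2.79%, 1.64% and 0.0350% of the lists were higher, and the peak of replicate 3 stood at place 21 of 42862 by -log10 q-value. Replicate 3 was thus the lowest of the 3 over Cdc42se2 and the highest over Akap13.

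H3K4me3 over a recurrent H3K4me1 region was the rule in these lists. Of the 1845 recurrent regions, 94.7% overlapped an H3K4me3 peak in 3 of 3 libraries, and the median covered share was 99.5%. The overlap at Cdc42se2 and Akap13 therefore did not set them apart from other recurrent regions. Among the 26818 H3K4me3 regions found in all 3 libraries, 11.4% overlapped an H3K4me1 peak in 3 of 3. The titles and antibody fields of the labels name H3K4me1 and H3K4me3, whereas their protocol text names an H3K27Ac antibody, and the titles were followed here.

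Whether the reference sequence of both regions is repeated was measured, since reads from repeated sequence can pile up in every library whatever the antibody. None of the 2373 words of 50 bases in the Cdc42se2 region, nor of the 884 in the Akap13 region, occurred more than once on the chromosomes of the reference, on either strand. The same held with words of 36 bases. Repeat-masked sequence made up 14.9% of the Cdc42se2 region and 7.82% of the Akap13 region, beside a median of 13.3% over the recurrent regions. The G and C share was 42.5% and 41.2%, beside a median of 45.3%. Of all recurrent regions, 92.6% likewise held no repeated word of 50 bases.

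The local background of both members was near the typical value of their lists. In some libraries it equaled the list median, a value that many other peaks share. In replicate 1 the same 0.425 fragments recurred at peaks on chromosomes 11 and 7, so the value behaves as a constant of the library. Where a member held such a value, its closeness to the median says nothing about its surroundings. The background ranged from 0.334 to 0.456 fragments at Cdc42se2 and from 0.368 to 0.457 at Akap13, with list medians of 0.334 to 0.425. The chromosome 9 region stood apart on each of these measures. There, 100% of the 50-base words were repeated, 91.8% of the bases were repeat-masked and the local background was 9.87 to 12.3 fragments, with 53 to 68 fragments at the summit. The region at the tenth place, in the pseudogene Pisd-ps2 on chromosome 17, had a background of 10.6 to 12.8 fragments and 24.5% repeated words. The Gm47283 region on chromosome Y had a background of 1.03 to 1.83 fragments and 25% repeated words. These regions were also covered by H3K4me3 peaks in 3 of 3 libraries. Of the 1845 recurrent regions, 5 had a background above 2 fragments in every H3K4me1 library. No input library and no list of excluded regions was used here, so other sources of signal shared by both marks were not tested.

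**Figure D2:**
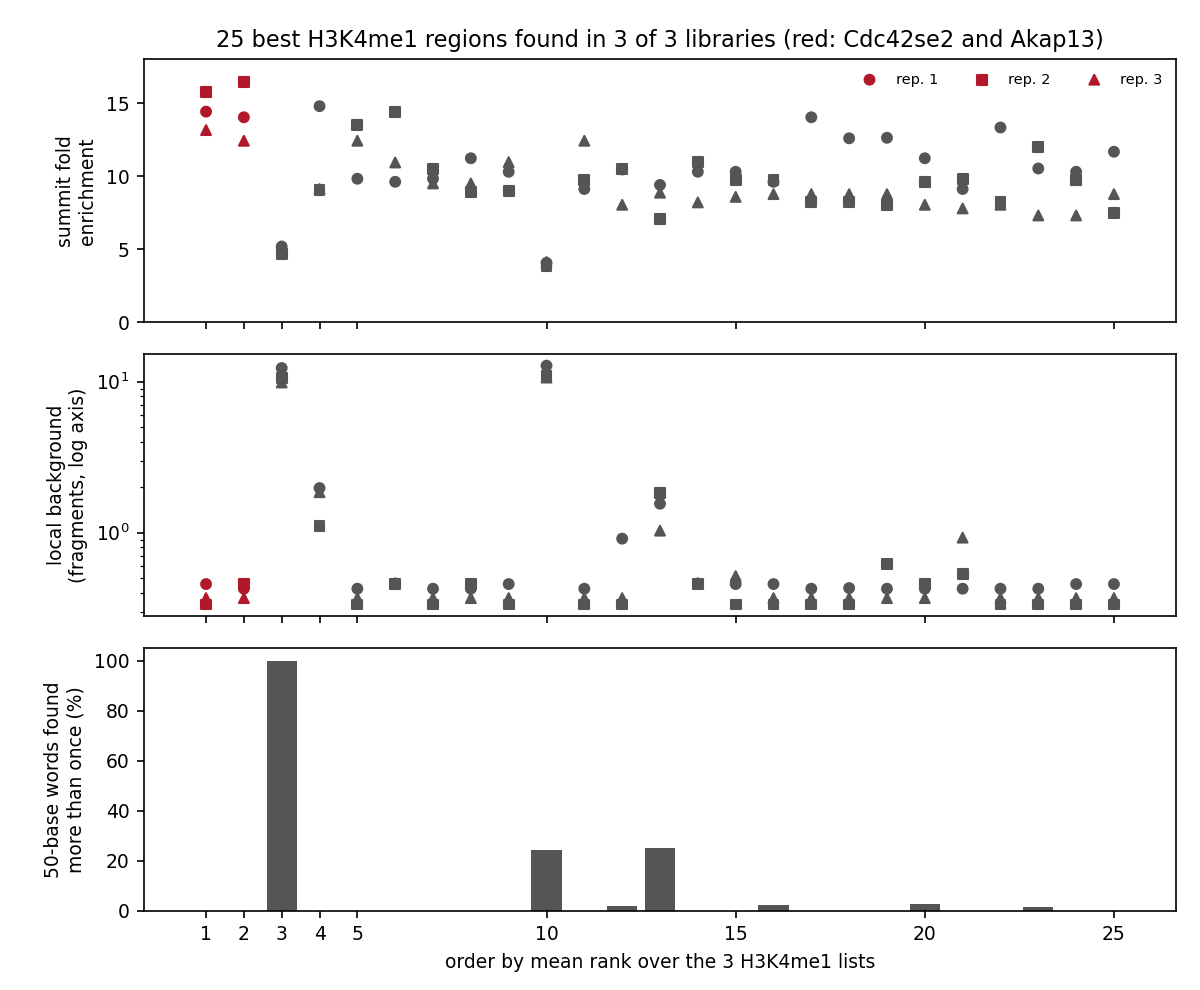
The 25 recurrent H3K4me1 regions with the best mean rank, in that order on the horizontal axis, with Cdc42se2 and Akap13 in red. The panels give summit fold enrichment per library, local background in fragments per library on a log axis, and the percent of 50-base words found more than once in the reference. Cdc42se2 and Akap13 pair the highest folds of replicate 2 with a background below 0.5 fragments and no repeated words, whereas the third region pairs a fold near 5 with a background of 9.87 to 12.3 fragments.

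Cdc42se2 spans chr11:54717456-54787675, a length of 70.2 kb. Over the gene and 50 kb on each side, H3K4me1 peaks numbered 20, 12 and 12 in replicates 1, 2 and 3, and H3K4me3 peaks numbered 19, 14 and 15. Replicate 1 had the most of both marks. A mean of 14.7 H3K4me1 peaks put the locus at place 102 of 21951 protein-coding loci, whose median was 1. These counts include the selecting region.

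The H3K4me1 peaks of the Cdc42se2 locus merged into 27 regions, of which 5 were found in 3 of 3 libraries and 18 in 1 library. Of all merged H3K4me1 regions, 4.68% were found in 3 of 3. The region that chose the gene is among the 5. All 5 were intronic and all overlapped H3K4me3 peaks in 3 of 3 libraries, as did 94.7% of all recurrent H3K4me1 regions. They lay at 5.05, 9.50 and 11.1 kb from the start site in the first intron, and at 53.3 and 60.6 kb in intron 3. Apart from the selecting region and its neighbor, their mean folds were 7.03 ± 0.460, 6.83 ± 1.48 and 7.78 ± 1.36 (SD, n = 3). Intron 1, of 31.0 kb, held 10, 7 and 7 H3K4me1 peaks and intron 3, of 16.6 kb, held 6, 3 and 3. The other 3 introns held 1 such peak, in replicate 3.

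H3K4me3 formed 19 merged regions over the Cdc42se2 locus, 10 of them in 3 of 3 libraries, where 41.6% of all H3K4me3 regions were found in 3 of 3. The start site was covered by H3K4me3 in each library, by a region with folds of 8.16, 6.50 and 8.56. The peak over the selecting region, 10.9 kb into the gene, had a fold of the same order as this promoter peak and was wider, 4.71 kb against 2.13 kb as merged regions. Upstream of the gene, 2 regions were found in 3 of 3 libraries, centered 14.1 and 20.4 kb from the start site, with mean folds of 6.46 ± 2.15 and 5.77 ± 1.33 (SD, n = 3). Past the end of the gene, a region centered 89.1 kb from the start site also recurred, with folds of 6.24, 4.68 and 4.62. Of the 10 recurrent H3K4me3 regions, 5 overlapped H3K4me1 in 3 of 3 libraries, the one over the selecting region among them. Of all recurrent H3K4me3 regions, 11.4% did so. The start site itself lay in no H3K4me1 peak, and the nearest H3K4me1 edge downstream was at 799, 4774 and 4672 bp.

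**Figure D3:**
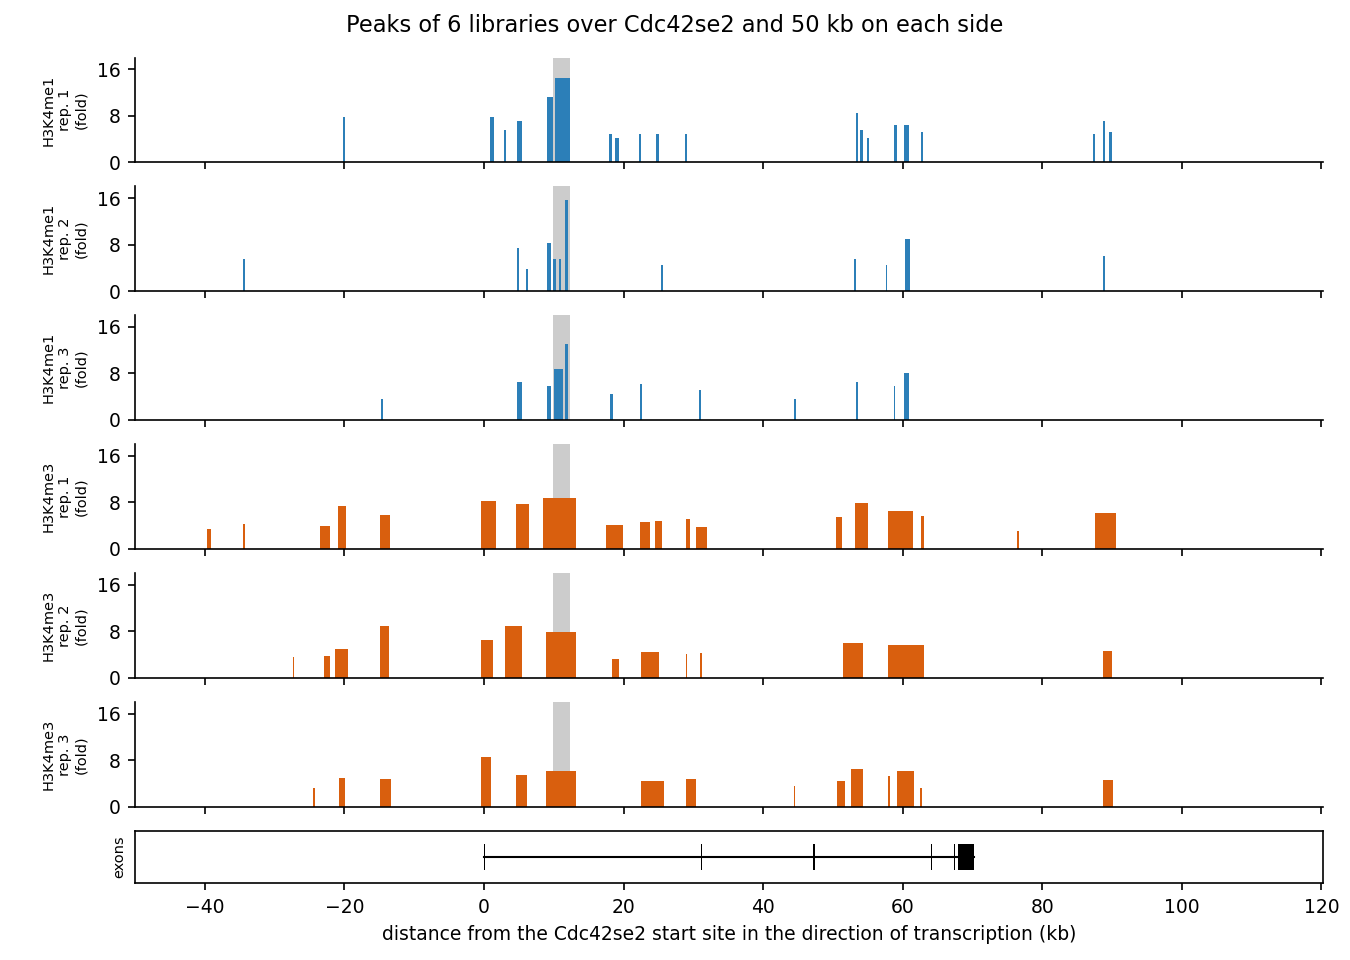
Peaks over Cdc42se2 and 50 kb on each side, with distance from the start site in kb on the horizontal axis, fold enrichment on each vertical axis and 1 library per row. Blue bars are H3K4me1 peaks, orange bars H3K4me3 peaks, the gray band is the selecting region, the exons are drawn at the bottom, and the narrowest bars are drawn at a fixed minimum width. The gray band holds the highest H3K4me1 peak in each library, and H3K4me3 peaks reach from upstream of the gene to intron 3 and recur past its end.

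The Akap13 promoter is shown because H3K4me3 peaks flanked its start site without covering it. The 250 bases before the RefSeq start (GRCm38.p6, the assembly of mm10) are given in the direction of transcription, chr7:75455284-75455533 on the plus strand, with CpG dinucleotides in capitals.

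Akap13 promoter: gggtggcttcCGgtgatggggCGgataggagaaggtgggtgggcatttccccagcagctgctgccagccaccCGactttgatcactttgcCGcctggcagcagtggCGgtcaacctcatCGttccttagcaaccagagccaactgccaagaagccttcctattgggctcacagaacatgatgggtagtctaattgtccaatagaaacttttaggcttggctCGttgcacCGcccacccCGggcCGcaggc

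This promoter of Akap13 held 10 CpG and was 58.4% G and C. Over 32817 promoters the median was 6 CpG, and 37.8% had at least as many as Akap13. Whereas H3K4me3 peaks covered the Cdc42se2 start site, the annotated Akap13 start site lay in a gap between H3K4me3 peaks in each library. The upstream peak ended 66, 91 and 124 bp before the start site and the downstream peak began 658, 662 and 691 bp after it. The merged upstream region had folds of 6.18, 8.52 and 3.17, and the downstream region 6.63, 11.99 and 6.66. The gap was thus of like position in all 3 libraries.

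Akap13 spans chr7:75455534-75754609, a length of 299 kb, which 2.59% of protein-coding genes reach. The locus with its flanks held 35, 25 and 26 H3K4me1 peaks in replicates 1, 2 and 3 and 31, 34 and 28 H3K4me3 peaks. The mean of 28.7 H3K4me1 peaks put the locus at place 7 of 21951. By peaks per 100 kb of locus it stood at place 227, and Cdc42se2 at place 111, so the order of the genes turned when length was taken into account. Of 36 Akap13 introns, 6 held an H3K4me1 peak in 3 of 3 libraries and 24 held none in any. Introns 1, 2, 3, 5, 8 and 10 were the 6, with intron 8 holding 7, 3 and 3 peaks and the 79.1 kb of intron 1 holding 6, 4 and 6.

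The H3K4me1 peaks of the Akap13 locus merged into 61 regions, 5 of them in 3 of 3 libraries and 41 in 1 library. Of all merged H3K4me1 regions, 4.68% were found in 3 of 3. The 5 lay in intron 1 at 15.2 and 75.0 kb from the start site, in intron 2 (the selecting region), in intron 10 at 214 kb, and 334 kb downstream of the start, past the end of the gene. Apart from the selecting region, their mean folds were 7.55 ± 2.06, 5.45 ± 1.20, 5.43 ± 1.16 and 5.99 ± 2.09 (SD, n = 3). The second-highest H3K4me1 peak of the locus had a fold of 8.42, 9.72 and 9.50 in the 3 libraries, on 11, 12 and 12 fragments.

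H3K4me3 formed 34 merged regions over the Akap13 locus, 25 in 3 of 3 libraries, and 11 of the 25 overlapped H3K4me1 in 3 of 3. Of all H3K4me3 regions, 41.6% were found in 3 of 3, and 11.4% of those overlapped H3K4me1 in 3 of 3. The 11 include the region over the selecting region. By the mean over the 3 libraries, the strongest recurrent region lay in intron 8, chr7:75653232-75658069, 200 kb downstream of the start site, with folds of 14.98, 11.7 and 11.2. The order differed between libraries. The intron 8 region was highest in replicate 1, the region just after the start site in replicate 2, at 11.99, and the region in intron 2 in replicate 3, at 14.4. No annotated transcript starts in it. The region over the H3K4me1 summit in intron 2 came second by the mean, at a fold of 11.1 ± 2.88 (SD, n = 3), followed by the broad region chr7:75585383-75591150 over exon 5, at 9.33 ± 0.434. A further region over exon 7, chr7:75608133-75613275, held 5 annotated starts of shorter Akap13 transcripts and had folds of 6.90, 6.81 and 5.92. The region chr7:75698833-75704778 over exon 17 held 3 more Akap13 starts, with folds of 8.18, 6.36 and 6.92.

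**Figure D4:**
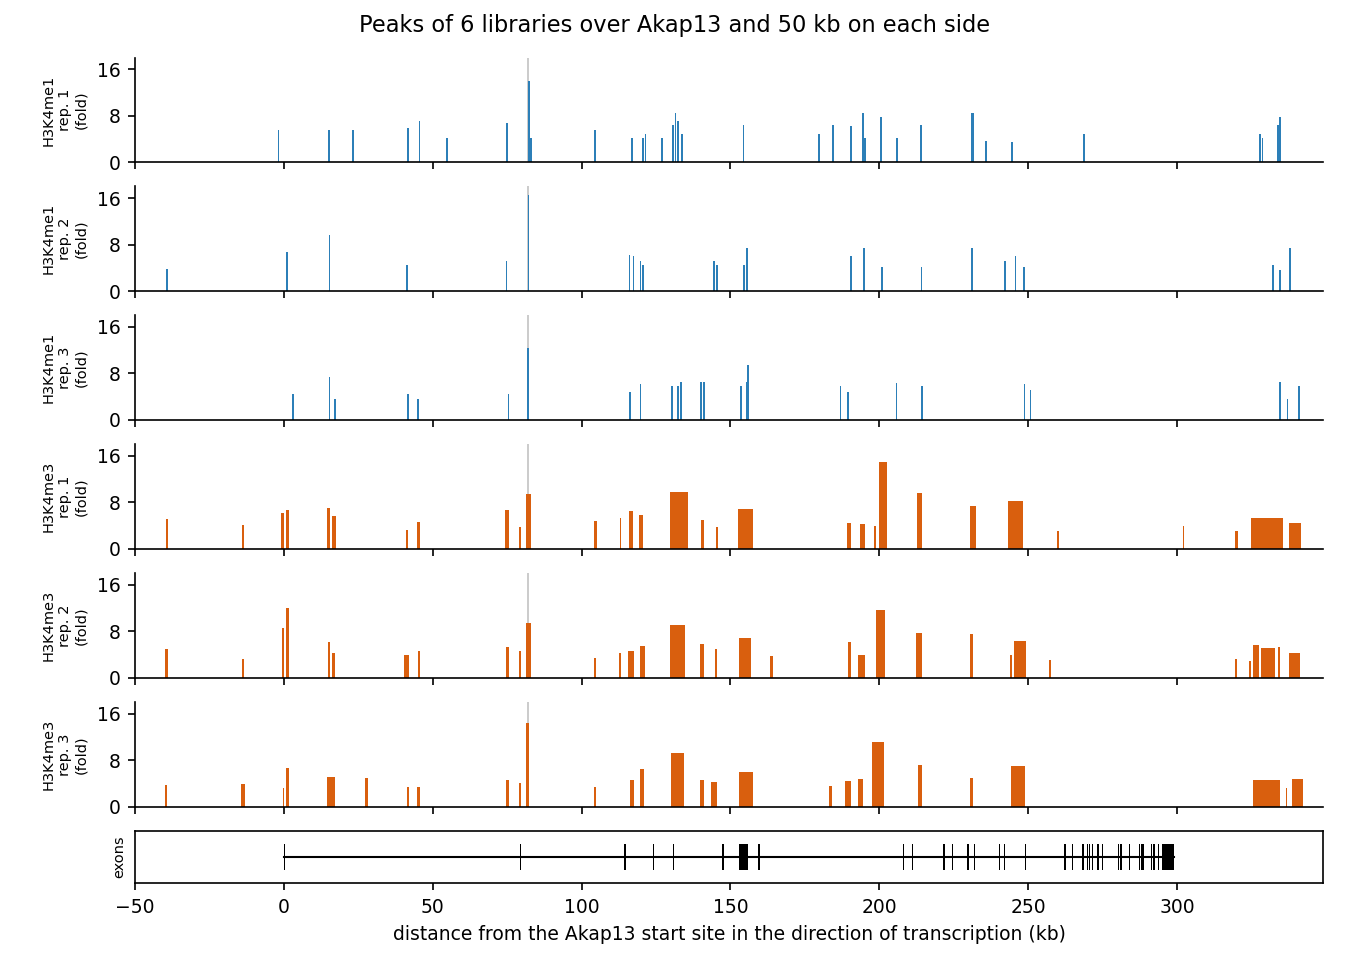
Peaks over Akap13 and 50 kb on each side, drawn as for Cdc42se2, with distance from the start site in kb on the horizontal axis and fold enrichment on each vertical axis. The single tallest H3K4me1 bar of each library stands in intron 2 (gray band), and by the mean over libraries the tallest recurrent H3K4me3 bars stand about 200 kb from the start site, in intron 8, followed by those in intron 2.

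Peaks of the other genes near both members were few. No protein-coding gene other than the members had a start site within 50 kb. At Cdc42se2, the antisense gene Gm12227 in intron 3 had its start in an H3K4me3 peak in 2 of 3 libraries and in an H3K4me1 peak in 1, and the starts of Gm12229, Lyrm7os and Gm25426 lay in no peak. At Akap13, the starts of the small nuclear RNA gene Gm25282, the long noncoding RNA gene AU020206 and the pseudogene Gm26729 lay in H3K4me3 peaks in 3 of 3 libraries, and that of Gm44835 in 1. The starts of Gm44962, Gm44834, Gm44695, Gm44694 and Gm23251 lay in no peak of either mark. AU020206 and Gm26729 shared a single H3K4me3 region of 11.1 kb past the end of Akap13. Gm25282 lay within the recurrent H3K4me3 region of intron 10.

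With the selecting region left out, the question was how much of each locus the marks covered. At Cdc42se2, H3K4me1 peaks covered 4.88%, 1.84% and 2.37% of the remaining locus and H3K4me3 peaks 16.6%, 14.01% and 11.9%. The means were 3.03% ± 1.62 and 14.2% ± 2.35 (SD, n = 3), a ratio of 4.68. At Akap13 the H3K4me1 values were 3.46%, 1.83% and 1.78% and the H3K4me3 values 14.5%, 12.8% and 13.6%, with means of 2.36% ± 0.955 and 13.7% ± 0.840 (SD, n = 3), a ratio of 5.79. Every H3K4me3 library exceeded every H3K4me1 library at both loci, as they did at 76.1% of protein-coding loci. Of the whole genome, the H3K4me1 lists covered 0.290%, 0.160% and 0.130% and the H3K4me3 lists 2.21%, 1.81% and 1.86%. The ratio of the mean shares was thus larger over the genome than at either locus, and the loci were chosen for H3K4me1. In a two-sided exact permutation test, p was 0.1 at both loci, the smallest value that 20 assignments of 3 against 3 libraries allow, and 0.2 after Benjamini-Hochberg adjustment over 4 tests. H3K4me1 was deposited as narrow and H3K4me3 as broad peaks, so the mark and the way its peaks were called cannot be told apart here.

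The number of peaks showed no such separation. Outside the selecting region, Cdc42se2 had 19, 9 and 10 H3K4me1 peaks and 18, 13 and 14 H3K4me3 peaks, with means of 12.7 ± 5.51 and 15 ± 2.65. Akap13 had 34, 24 and 25 H3K4me1 peaks and 30, 33 and 27 H3K4me3 peaks, with means of 27.7 ± 5.51 and 30 ± 3 (SD, n = 3). The exact permutation p was 0.6 at each locus, also after adjustment, and the direction turned when the flanks were left out. The difference, H3K4me3 minus H3K4me1, was then -0.667 at Cdc42se2 and -1 at Akap13. By number of peaks, the lowest H3K4me3 library was above the highest H3K4me1 library at 55.8% of protein-coding loci, but at neither member. Both genes were chosen for H3K4me1 signal, so this contrast with other loci is not independent of the choice. The labels do not say whether libraries came from separate animals, so these p-values measure only the spread between libraries.

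**Figure D5:**
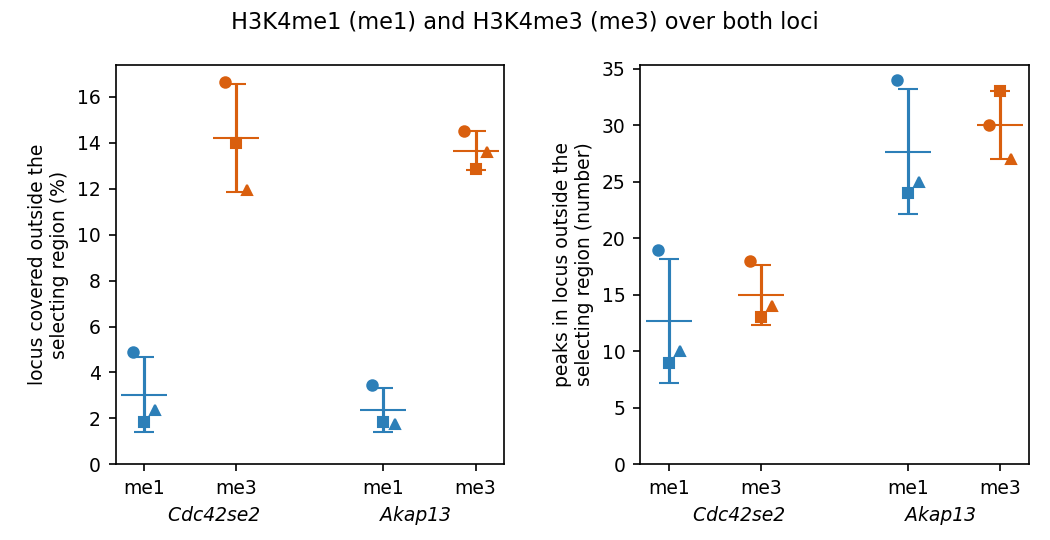
Percent of the locus covered (left) and number of peaks (right) outside the selecting region, for H3K4me1 (blue) and H3K4me3 (orange) at both genes. Symbols are replicates 1 (circle), 2 (square) and 3 (triangle), and bars are the mean ± SD of 3 libraries. Covered shares of the marks lie apart at both loci, and the numbers of peaks overlap.

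The marks also met outside the selecting regions. Of the H3K4me1 peaks of the Cdc42se2 locus that lay outside its selecting region, 14 of 19, 5 of 9 and 6 of 10 overlapped an H3K4me3 peak in 3 of 3 libraries (73.7%, 55.6% and 60%). In the whole lists of the same libraries the shares were 60.8%, 62.3% and 66.4%, and the Cdc42se2 shares lay on both sides of these. At Akap13, 21 of 34, 20 of 24 and 18 of 25 such peaks did so (61.8%, 83.3% and 72%), near the list share in replicate 1. These differences rest on few peaks and were not tested, so no direction is read for either gene.

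The genes of the pathways in which both members act were described beside all protein-coding genes, of which 56.3% had an H3K4me3 peak within 5 kb of a start site and 10.2% an H3K4me1 peak in the gene in 3 of 3 libraries. Of 13 listed genes of CDC42 and its effectors other than Cdc42se2, 10 had the promoter H3K4me3 peak and 4 the H3K4me1 peak in the gene. The 4 were Cdc42 itself, with 2, 2 and 2 H3K4me1 peaks, the kinase Pak2, with 4, 3 and 1, the scaffold Iqgap1, with 11, 8 and 3, and Arhgdib, a lymphocyte protein that holds small GTPases in an inactive pool, with 5, 2 and 4. The closest relative, Cdc42se1, had 1, 1 and 0. The Cdc42se2 gene itself held 16, 10 and 11.

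Of 11 listed RhoA exchange factors and effectors other than Akap13, 10 had promoter H3K4me3 and 5 gene-body H3K4me1 in 3 of 3 libraries, again beside 56.3% and 10.2% of all protein-coding genes. Gna13, the G protein that restrains GC B cell migration, had 5, 1 and 1 H3K4me1 peaks, Gna12 had 7, 4 and 3, the kinase Rock2 had 1, 6 and 2, and Arhgef1, the exchange factor that acts after Gna13, had 3, 1 and 0. Among 15 genes of A-kinase anchoring proteins and protein kinase A subunits other than Akap13, the counts were 13 and 4. The 4 were Akap2, with 11, 2 and 6 H3K4me1 peaks, Akap9, with 4, 3 and 2, Akap7, with 2, 2 and 3, and Akap12, with 2, 1 and 1. The Akap13 gene, chosen for its H3K4me1 signal, held 30, 21 and 23. Genes differ in length, so these counts are not levels, and the median number of gene-body H3K4me1 peaks over the lists without the members was 0.333 to 1.33, beside 0 over all protein-coding genes.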

How the data were processed

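Mint-ChIP peak lists of 6 libraries were used, 1 list per library, as the authors deposited them. H3K4me1 lists are narrow peaks and H3K4me3 lists broad peaks, with columns in the layout of MACS2. The deposited columns hold a fold enrichment ratio, -log10 p-values and -log10 q-values, and a display score that was not used. The submitters' processing notes name BWA, Picard, HOMER and Genrich and the build mm10, without roles. The caller, its settings, an input and the read totals are not given in the sources used here, so the depth per library is unknown.

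Genes were taken from GENCODE M21 (basic), on the same assembly. Annotated starts inside merged regions were counted in the full GENCODE M21 annotation, which is a larger set of transcripts. A locus was the gene with 50 kb on each side. Peaks sharing at least 1 bp were merged into regions. Ranks were taken on -log10 q-values, ties at the best place. Fragments (k) and local background (b) at narrow summits were solved from fold = (k + 1)/(b + 1) and the Poisson p-value, which gave a whole k within 0.0005 of the listed -log10 p for 100% of peaks. Words of 50 or 36 bases were counted on chromosomes 1 to 19, X, Y and MT. The word counter, the merging and the tests were tested on simulated data. Covered shares and peak numbers were compared between marks by two-sided exact permutation tests. Named genes were the members, genes starting within 50 kb, the next 5 intronic genes by mean rank and 3 pathway lists, with 2 to 4 examples each. The members, the lists and the tests were chosen with earlier results of these data known. A few items are not reported here. Alternatives were a replicate block, each library left out, peaks with -log10 q of at least 5, the 10000 best peaks, other flanks, and other rankings. Analyses used Python 3.11.15, numpy 2.4.6, pandas 2.3.3 and scipy 1.17.1.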

Additional observations from a re-analysis of the deposited data

How the results depend on the processing

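The covered share was higher for H3K4me3 at both loci under every alternative run, with differences of 3.38 to 19.4 percentage points at Cdc42se2 and 4.07 to 11.8 at Akap13. Leaving out each library gave 9.94 to 12.3 and 10.9 to 11.8. With the replicate block the differences stayed 11.2 and 11.3 and p rose to 0.25, the smallest that 8 sign patterns allow. For the number of peaks the same exact test with the block gave p = 0.5 at Cdc42se2 and 0.75 at Akap13. Same-numbered libraries did not deviate together over all loci (r = 0.0392, 0.0353 and -0.00999 for the covered share), so the numbers were not taken as pairs.

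The difference in number of peaks, H3K4me3 minus H3K4me1, was 2.33 at each locus and turned with the 10000 best peaks per list, to -7.00 at Cdc42se2 and -12.7 at Akap13. With the gene body alone it was -0.667 and -1, and with 10 kb flanks -0.333 and 0. The range without 1 library was 0.500 to 5.50 at both. The cause was not tested.

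In place of the fold of 14.4 at Cdc42se2, the mean over all peaks in the region was 11.4, the -log10 q 19.6 and the -log10 p 26.9. At Akap13 the latter were 19.0 and 26.7. Without 1 library the fold was 13.8 to 15.1 at Cdc42se2 and 13.2 to 15.3 at Akap13. H3K4me3 cover of the span of the Akap13 summits with 150 bp was 96.4% instead of 99.3%, and 99.0% to 100% without 1 library. With peaks of -log10 q of at least 5, Cdc42se2 moved from place 102 to 22 and Akap13 from 7 to 2, and by peaks per 100 kb Akap13 moved to 227. Without replicate 1 or 3 Akap13 stood at 4 or 12, a range of 4 to 12, and Cdc42se2 at 98 to 113. By mean rank without replicate 2, Cdc42se2 fell from the first place to 2 and Akap13 from 2 to 4, against ranges of 1 to 2 and 2 to 4. Both kept places 1 and 2 when ranked by fold or p-value or with peaks within 1 kb merged. Of 102 alternatives in all, 83 kept the direction of a contrast, stayed within the spread between replicates, or moved a place by at most 1.5 times. Some of these could not come out otherwise, so the count is no measure of robustness. The replicate block leaves a difference unchanged, and leaving out 1 library cannot move a mean fold or cover beyond that spread. The mean over all Akap13 peaks equals the main value because each library had a single peak there. Summits rest on few fragments, which limits any ordering beyond the best regions.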
